A study of Mus musculus with 6 samples.

Results

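The 10 genes described here encode proteins of the neuronal cytoskeleton and its partners: the tubulin Tubb3, the microtubule proteins Dcx, Map2, Mapt and Stmn2, the neurofilament subunits Nefl and Nefm, the growth cone protein Gap43, and the RNA-binding proteins Elavl3 and Elavl4. They were taken by name, and all 10 were found among 19938 measured genes, each on exactly 1 row of the array table. The genes were followed on 6 arrays as mouse epiblast stem cells (EpiSCs) were turned first into neural rosettes, then into oligodendrocyte progenitor cells (OPCs), and finally into oligodendrocytes.

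A young neuron builds its axon and dendrites on bundles of microtubules, which are stiffened by proteins such as MAP2 and tau and made dynamic at the growing tip by stathmins, and it later fills the axon with neurofilaments. The Elavl proteins of neurons bind AU-rich and U-rich stretches of messenger RNA and act on its stability, splicing and translation. These genes are widely used as neuronal markers, but several of them, including Map2, Mapt, Dcx and Gap43, are also known from cells of the oligodendrocyte lineage, which likewise grow long branched processes on microtubules.

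All cultures were of strain 129, and the labels name no genetic change in any of them. EpiSCs (1 array) were kept in a serum replacement medium with 10 ng/ml FGF2. Rosettes (1 array, day 5) were made from EpiSCs with SB431542, Dorsomorphin, Noggin, retinoic acid and sonic hedgehog (SHH), OPCs (2 arrays, at passages 3 and 11) were dissociated rosettes expanded with FGF2, PDGF-AA and SHH in N2B27 medium, and oligodendrocytes (2 arrays, from OPCs of passages 3 and 11) were OPCs given thyroid hormone with FGF2 and PDGF-AA withdrawn. The EpiSC and rosette cultures have no replicate, and it is not stated whether the arrays of a pair came from independent cultures. The p-values thus reflect the scatter among these arrays alone. The 2 arrays of a pair are of passages 3 and 11, so this scatter holds any passage difference together with technical scatter, except where passage was blocked.

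Values are log2 expression, and differences are log2 differences with the standard error (SE) of a limma fit over all genes. A gene is called when its Benjamini-Hochberg adjusted p over all 19938 genes was under 0.05, and "rose" and "fell" are used only of called genes. The median of all gene values was 9.0, and a value near or below it can hold background signal, which compresses differences. The 5 epiblast markers (among them Pou5f1 and Nanog) lay between 11.54 and 13.88 on the EpiSC array and between 7.33 and 8.81 on the other arrays. The 6 OPC markers lay between 10.54 and 13.19 on the OPC arrays, and the 6 measured oligodendrocyte markers between 11.52 and 13.97 on the oligodendrocyte arrays against 8.01 to 10.96 in OPCs. The OPC markers were still between 9.82 and 12.91 on the oligodendrocyte arrays. Of the 6, 5 were lower there than in OPCs (median -0.53) and 0 were called. How many OPCs remained in the oligodendrocyte cultures was not tested. The 6 microglial markers stayed between 7.27 and 9.23 on all 6 arrays.

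The bases just upstream of 4 of these genes are shown first, because their expression parted after the rosette stage: Elavl3 from Elavl4, and Tubb3 from Map2. The RefSeq promoter table (GRCm38.p6, a C57BL/6J assembly, whereas the cells are of strain 129) held windows for 5 of the 10 genes, namely Map2, Elavl4, Tubb3, Elavl3 and Dcx, with 9 windows in all because Elavl4 and Dcx have several annotated starts. Each sequence is the 250 bases before an annotated start, 5′ to 3′ on the gene's strand: Elavl3 at chr9:22052024-22052273 (minus strand), Elavl4 at chr4:110287512-110287761 (minus strand, the one of its 4 windows with the most motif matches), Tubb3 at chr8:123411303-123411552 (plus strand) and Map2 at chr1:66175079-66175328 (plus strand). Capitals mark matches on either strand to CAGCTG or CAGATG (both E-boxes, the kind of site that basic helix-loop-helix factors bind), TATAAA (the TATA box) or CCAAT, so that ATTGG is a CCAAT box on the other strand.
Elavl3: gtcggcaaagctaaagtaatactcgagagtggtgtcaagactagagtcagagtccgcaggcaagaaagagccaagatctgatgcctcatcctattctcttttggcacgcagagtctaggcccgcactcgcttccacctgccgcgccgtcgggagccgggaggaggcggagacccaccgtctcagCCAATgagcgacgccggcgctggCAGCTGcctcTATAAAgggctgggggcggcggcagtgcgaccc
Elavl4: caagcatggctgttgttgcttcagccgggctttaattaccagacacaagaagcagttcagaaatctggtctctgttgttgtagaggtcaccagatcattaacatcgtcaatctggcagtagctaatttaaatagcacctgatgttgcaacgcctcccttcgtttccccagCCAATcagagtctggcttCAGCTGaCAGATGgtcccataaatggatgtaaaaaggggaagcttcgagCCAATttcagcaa
Tubb3: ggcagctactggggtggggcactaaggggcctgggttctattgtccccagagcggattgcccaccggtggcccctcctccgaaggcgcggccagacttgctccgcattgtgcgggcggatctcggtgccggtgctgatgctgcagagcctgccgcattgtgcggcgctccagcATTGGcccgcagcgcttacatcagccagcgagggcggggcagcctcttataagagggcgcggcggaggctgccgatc
Map2: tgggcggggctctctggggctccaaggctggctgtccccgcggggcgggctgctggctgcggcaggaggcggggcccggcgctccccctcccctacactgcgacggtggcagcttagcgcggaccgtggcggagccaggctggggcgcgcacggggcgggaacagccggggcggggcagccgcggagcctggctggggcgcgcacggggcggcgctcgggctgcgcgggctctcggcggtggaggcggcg

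The Elavl3 window held CCAAT starting 66 bases, CAGCTG 43 bases and TATAAA 33 bases before the start. In the Elavl4 window CAGCTG began 62 and CAGATG 55 bases before the start, with CCAAT at 80 and 13. The Tubb3 window held a single CCAAT match, and the Map2 window, with a GC content of 81.2%, held none of the 4 motifs. Among all 32851 windows of this length in the table, 13% held CAGCTG, 14.4% CAGATG, 12.4% TATAAA and 33.8% CCAAT, so that each of these motifs is common on its own. Either E-box was held by 25.5%. These shares are of single windows and do not apply to the Elavl4 window, which was picked from 4 for its matches. These matches describe the letters only.

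The 10 genes did not move as a block (plot of the levels on each array). The rosette was the highest array for 9 of them, Map2 being the exception. On leaving the rosette stage they followed different courses: the neurofilament genes fell to or below the EpiSC level, Map2 and Gap43 were at about the rosette level in OPCs, Dcx and Elavl4 lay in between, Elavl3 was low in OPCs and high again in oligodendrocytes, and Stmn2 differed more between passages than between OPCs and oligodendrocytes.

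**Figure D1:**
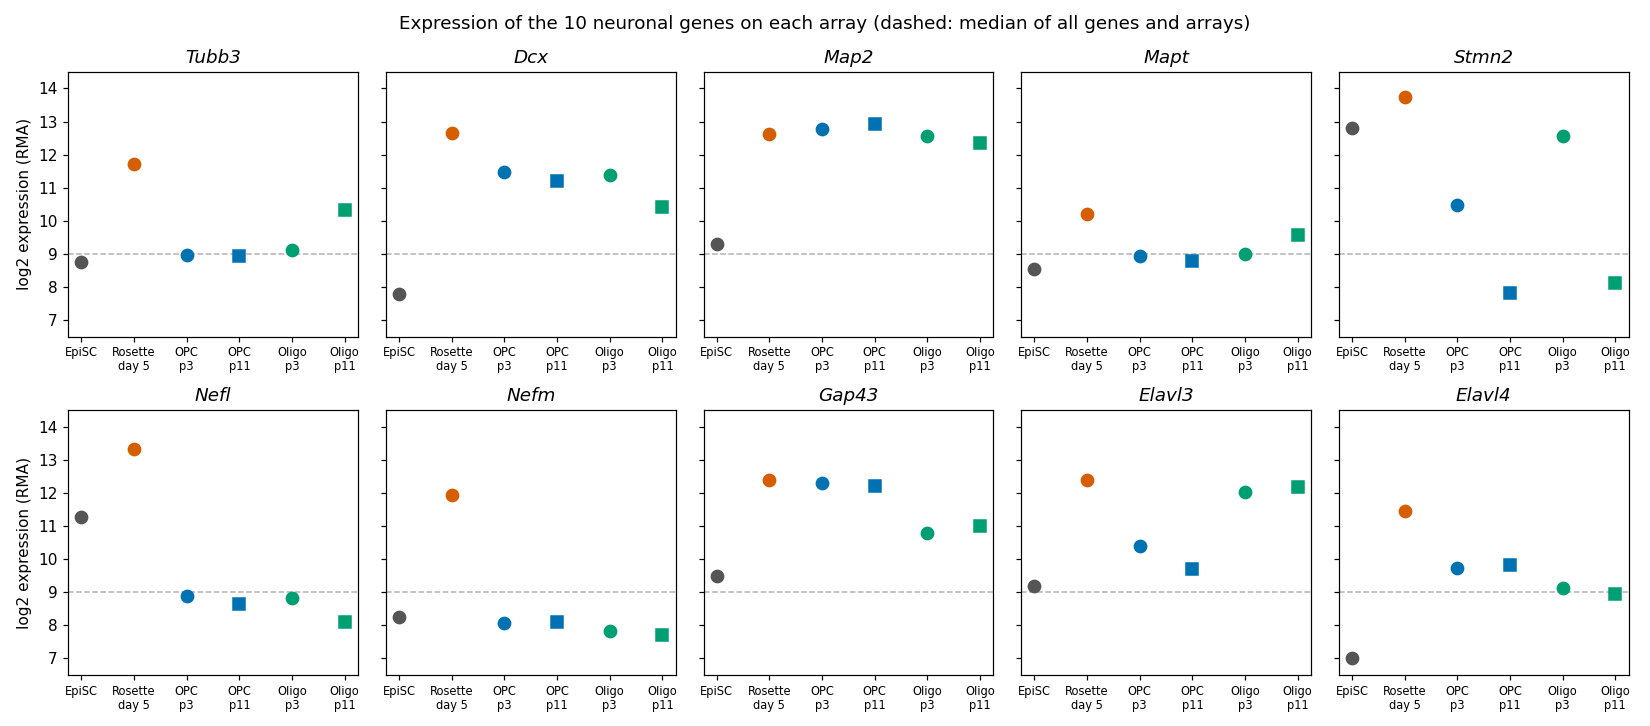
Log2 expression of each of the 10 genes (vertical axis) on the 6 arrays (horizontal axis: EpiSC, day 5 rosette, OPCs and oligodendrocytes at passages 3 and 11). Each point is 1 array, circles for passage 3 and for the single EpiSC and rosette arrays, squares for passage 11, and the dashed line is the median of all gene values, 9.0. Map2 stays above 12 after the EpiSC stage, Nefm is above the line only in the rosette, and Stmn2 is high at passage 3 in oligodendrocytes and low at passage 11.

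Between EpiSCs and the rosette, 9 of the 10 genes had a rosette level at least 2-fold above EpiSCs, where 6.91% of all genes did, and 8 passed 4-fold, where 1.75% did. The median difference of the 10 was 3.09, against -0.07 over all genes. With a single array per stage no test was run here, and the genes are known neuronal markers picked with such results known. Dcx stood second and Elavl4 sixth among all 19938 genes ordered by this difference. The 10 mature neuron markers were higher on the same array: all 10 were positive, 7 were at least 2-fold higher, and their summed linear signal (2 to the power of each log2 value) was 14200 in the rosette against 3060 in EpiSCs, 5810 and 6140 in OPCs and 5810 and 5510 in oligodendrocytes. Their part in the result was not tested. In bulk cultures, fewer cells of a type and less RNA per cell cannot be told apart.

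Between the rosette and OPCs, 4 of the 10 genes fell (Nefl, Nefm, Elavl3 and Elavl4) and 0 rose, where 3.13% of all genes were called, 1.87% lower and 1.26% higher. The median of the 10 was -2.0 against 0.02 over all genes. Fewer of the 10 were called without either OPC array and more without either oligodendrocyte array, and the number called over all genes moved the same way. The oligodendrocyte arrays enter here only through the estimate of the spread. The single rosette and EpiSC arrays were assumed to vary as the OPC and oligodendrocyte pairs do, and the comparisons below share arrays with each other.

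**Figure D2:**
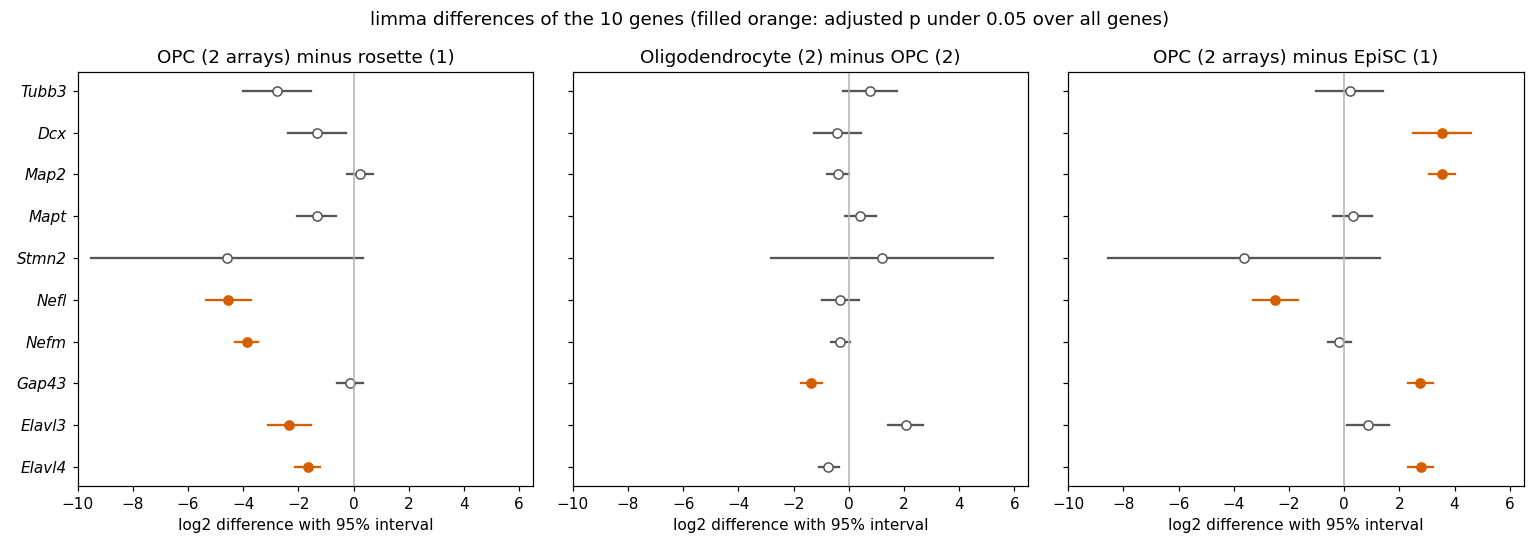
Log2 differences of the 10 genes (horizontal axis) with 95% intervals from limma, for OPCs minus rosette, oligodendrocytes minus OPCs and OPCs minus EpiSCs. Filled orange points passed an adjusted p of 0.05 over all genes and open points did not. Nefl and Nefm are far left in the first panel while Map2 and Gap43 sit near 0, Dcx, Map2, Gap43 and Elavl4 are to the right in the third panel, and the interval of Stmn2 is the widest in all 3.

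Tubb3 encodes the beta-tubulin isotype that is most used to mark neurons. Its values were 8.75 in EpiSCs, 11.73 in the rosette, 8.96 and 8.93 in OPCs at passages 3 and 11, and 9.11 and 10.32 in oligodendrocytes. The rosette was high, OPCs were close to EpiSCs and to each other, and the passage 11 oligodendrocytes stood 1.21 above those of passage 3. OPCs were 2.78 ± 0.48 (SE, 2 arrays against 1) below the rosette, 6.86-fold, which narrowly did not pass (adjusted p = 0.0537). It passed with a passage block (0.0383) and did not without the passage 3 (0.113) or passage 11 OPC array (0.139), and over all alternatives the adjusted p ran from 3.32e-07 to 0.139. Against EpiSCs, OPCs differed by 0.20 (95% interval -1.02 to 1.42). Oligodendrocytes were 0.77 ± 0.39 above OPCs (adjusted p = 0.551), 0.15 at passage 3 and 1.38 at passage 11.

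Mapt encodes tau, which binds along axonal microtubules, and its course resembled that of Tubb3 at a smaller size. It was at 8.55 in EpiSCs, 10.20 in the rosette, 8.94 and 8.78 in OPCs and 8.99 and 9.56 in oligodendrocytes, so that only the rosette and the passage 11 oligodendrocytes stood clear of the median of all genes. OPCs were at -1.34 ± 0.28 against the rosette (adjusted p = 0.081) and at 0.31 against EpiSCs (95% interval -0.39 to 1.0). Over the 6 arrays the 2 genes correlated at a Pearson r of 0.99, which is a description of 4 cell types and not of independent samples.

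Map2, whose product bundles microtubules in dendrites and cell bodies, stayed near its rosette level on the later arrays, unlike Tubb3 and Mapt. Its values were 9.31 in EpiSCs, 12.62 in the rosette, 12.77 and 12.93 in OPCs and 12.56 and 12.34 in oligodendrocytes. All 5 neural arrays lay within a narrow band and far above EpiSCs. OPCs were 3.54 ± 0.19 above EpiSCs, 11.6-fold (adjusted p = 0.00218), and differed from the rosette by 0.23 with a 95% interval of -0.25 to 0.72. For oligodendrocytes against OPCs the difference was -0.40 ± 0.16 (adjusted p = 0.397), and against the rosette it was -0.17 (95% interval -0.65 to 0.32).

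Dcx encodes doublecortin, a microtubule protein of migrating young neurons. It was at 7.79 in EpiSCs, 12.66 in the rosette, 11.47 and 11.20 in OPCs, and 11.40 and 10.43 in oligodendrocytes. Every later array lay below the rosette but at least 2 log2 units above EpiSCs. OPCs rose by 3.54 ± 0.41 against EpiSCs, 11.7-fold (adjusted p = 0.0117), and were at -1.32 ± 0.41 against the rosette (adjusted p = 0.213). Oligodendrocytes were at -1.74 against the rosette (adjusted p = 0.0851, or 0.0315 once passage was a block). The doublecortin relatives Dclk1 and Dclk2 had OPC means of 11.03 and 10.87, against 11.16 and 10.44 in the rosette and 9.83 and 9.18 in EpiSCs.

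Stmn2 (SCG10) encodes a stathmin of growing axons that destabilises microtubules. It was already high in EpiSCs, at 12.79, and it was 13.74 in the rosette, the one difference between these arrays under 2-fold (0.95). In OPCs it was 10.48 at passage 3 and 7.82 at passage 11, and in oligodendrocytes 12.56 at passage 3 and 8.12 at passage 11. The passage 3 arrays were high and the passage 11 arrays low in both cell types, and the OPC and oligodendrocyte values overlapped. Against the rosette, OPCs were at -4.59 ± 1.95 and oligodendrocytes at -3.40 ± 1.95, with adjusted p of 0.363 and 0.399, so that neither was called. Blocking on passage brought both under the threshold, at adjusted p of 0.0286 and 0.0374, and likewise OPCs against EpiSCs (-3.64, adjusted p = 0.406, or 0.0298 with the block). The block takes the passage difference out of the spread and sets the EpiSC and rosette arrays, which have no passage label, midway between the passages. Over all genes it called 1206 in OPCs against the rosette (624 without it) and 2318 in OPCs against EpiSCs (1397 without it). Oligodendrocytes minus OPCs gave 2.08 in the passage 3 pair and 0.30 in the passage 11 pair, and a mean of 1.19 ± 1.59 (adjusted p = 0.919). That mean became -1.03 without the passage 3 oligodendrocytes and -0.14 without the passage 11 OPCs. It became 2.52 without the passage 3 OPCs and 3.41 without the passage 11 oligodendrocytes.

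Nefl and Nefm encode the light and medium subunits of neurofilaments and lie near each other in the genome, with 1 other gene between them in the RefSeq table (GRCm38.p6). Nefl was at 11.27 in EpiSCs, 13.32 in the rosette, 8.89 and 8.65 in OPCs and 8.82 and 8.11 in oligodendrocytes. Nefm was at 8.26 in EpiSCs, 11.95 in the rosette, 8.07 and 8.09 in OPCs and 7.83 and 7.72 in oligodendrocytes. Both were high in the rosette and below the median of all genes in OPCs and oligodendrocytes, but Nefl was also well above that median in EpiSCs and Nefm was not.

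From the rosette to OPCs, Nefl fell by 4.54 ± 0.32 (SE), 23.3-fold (adjusted p = 0.00616), and Nefm fell by 3.87 ± 0.17, 14.6-fold (adjusted p = 0.00361). Since the OPC values may be near background, these folds may understate the change. Both genes were also called without either OPC array. Against EpiSCs, OPC Nefl fell by 2.50 ± 0.32, 5.65-fold (adjusted p = 0.0155, and 0.051 without the passage 11 OPC array), while Nefm differed by -0.18 (95% interval -0.60 to 0.24). Oligodendrocytes were at -0.31 against OPCs for each gene, with adjusted p of 0.798 for Nefl and 0.468 for Nefm, and the Nefl difference was 0.05 without the passage 11 oligodendrocytes.

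Gap43, a protein of the inner membrane face of growth cones, had a course of its own. It was at 9.49 in EpiSCs, 12.39 in the rosette, 12.29 and 12.22 in OPCs and 10.78 and 11.00 in oligodendrocytes. OPCs matched the rosette closely, and both oligodendrocyte arrays lay below both OPC arrays. OPCs rose by 2.76 ± 0.18 against EpiSCs, 6.79-fold (adjusted p = 0.0031), and differed from the rosette by -0.14 (95% interval -0.60 to 0.33). From OPCs to oligodendrocytes Gap43 fell by 1.36 ± 0.15, 2.57-fold (adjusted p = 0.0453). It was the 1 gene of the 10 called in that comparison, where 0.446% of all genes were called, 0.0502% lower and 0.396% higher.

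The Gap43 call was marginal: over all alternatives the adjusted p ran from 1.88e-04 to 0.305, with 0.0556 under a passage block, 0.298 without the passage 11 OPC array and 0.305 without the passage 3 OPC array. By a rule that rests on no estimate of spread, Gap43 was also the 1 gene of the 10 at least 2-fold lower at both passages (-1.51 at passage 3 and -1.22 at passage 11), as were 0.371% of all genes. Against the rosette, oligodendrocytes fell by 1.5 ± 0.18 (adjusted p = 0.0192, and 0.0501 without either OPC array).

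Elavl3 (HuC) and Elavl4 (HuD) are closely related RNA-binding proteins of neurons. Elavl3 was at 9.18 in EpiSCs, 12.38 in the rosette, 10.39 and 9.71 in OPCs and 12.04 and 12.18 in oligodendrocytes. Elavl4 was at 7.0 in EpiSCs, 11.44 in the rosette, 9.73 and 9.81 in OPCs and 9.12 and 8.95 in oligodendrocytes. Elavl3 was thus lower in OPCs than in the arrays on either side of them, with no overlap between OPCs and oligodendrocytes, whereas Elavl4 was lower in OPCs than in the rosette and lower again in oligodendrocytes.

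Both fell from the rosette to OPCs, Elavl3 by 2.33 ± 0.30, 5.02-fold (adjusted p = 0.0253), and Elavl4 by 1.67 ± 0.18, 3.19-fold (adjusted p = 0.0156). Leaving out 1 OPC array ended these calls in part: the adjusted p of Elavl3 was 0.0568 without passage 11, and that of Elavl4 was 0.0812 without passage 3 and 0.0854 without passage 11. Elavl4 in OPCs was still 2.77 ± 0.18 above EpiSCs, 6.81-fold (adjusted p = 0.00289), while Elavl3 was at 0.87 ± 0.30 (adjusted p = 0.19).

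In oligodendrocytes against OPCs, Elavl3 was higher by 2.06 ± 0.25, 4.16-fold, and did not pass (adjusted p = 0.0602). It was the 1 gene of the 10 at least 2-fold higher at both passages, 1.65 at passage 3 and 2.46 at passage 11, as were 1.14% of all genes, and it stood at place 74 of 19938 when all genes were ordered by this increase. Its adjusted p was 0.0256 when each array was centred on its median. It was 0.0569 with a trended variance, 0.0619 with a passage block, 0.0655 with arrays quantile-normalized again and 0.0688 without dim genes. With 1 array left out, the Elavl3 difference ran from 1.72 (without the passage 11 OPC array) to 2.39 (without that of passage 3). Elavl4 was at -0.74 ± 0.14 (adjusted p = 0.152). Against the rosette, oligodendrocyte Elavl3 differed by -0.27 (95% interval -1.04 to 0.50), whereas Elavl4 fell by 2.41 ± 0.18, 5.32-fold (adjusted p = 0.00586). The difference between the courses of the 2 genes was not itself tested.

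Of the 10 genes, 5 were called in OPCs against EpiSCs: Dcx, Map2, Gap43 and Elavl4 rose and Nefl fell, where 7.01% of all genes were called (4.07% rose and 2.93% fell). In oligodendrocytes against the rosette 4 were called, Nefl, Nefm, Gap43 and Elavl4, all lower, where 4.72% of all genes were called, 2.68% lower and 2.04% higher. That count was 8 without the passage 3 oligodendrocytes and 7 without those of passage 11. Nefl was at -4.85 ± 0.32, 28.8-fold, and Nefm at -4.17 ± 0.17, 18.1-fold.

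Between passages, Stmn2 stood apart from the other 9 genes. Passage 11 minus passage 3 was -2.66 in OPCs, 6.34-fold, and -4.44 in oligodendrocytes, 21.7-fold. Among all 19938 genes ordered from the largest decrease, this was the third in OPCs and the first in oligodendrocytes. Only 0.336% of genes were at least 2-fold lower at passage 11 in both cell types, and of the 10 only Stmn2 was. In OPCs the other 9 genes differed by less than 2-fold, where 0.627% of all genes passed that size and 0.487% were lower. In oligodendrocytes Tubb3 was the other gene past that size, at 1.21, where 3.94% of all genes passed it and 3.16% were lower.

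In the fit of passage over the 4 OPC and oligodendrocyte arrays, Stmn2 was at -3.55 ± 0.45 (unadjusted p = 0.00112, adjusted p = 0.341). No gene was called by limma (0%), although 2769 genes, among them Stmn2, Dcx and Nefl of the 10, had an unadjusted p under 0.05. With a trended variance 1 gene was called and with arrays centred on their medians 2, neither of them among the 10. This fit has 1 residual degree of freedom, which is how far OPCs and oligodendrocytes disagree. Its standard error does not measure that disagreement alone. limma combines it with a spread estimated over all genes, which holds 3.19 of the 4.19 total degrees of freedom. Dcx was at -0.27 in OPCs and -0.98 in oligodendrocytes, and Nefl at -0.24 and -0.71.

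Of the 6 astrocyte markers none was called between passages, and their values went both ways. Passage 11 minus passage 3 of Aldh1l1 was -2.6 in OPCs and -1.35 in oligodendrocytes, and in oligodendrocytes that of Gfap was -1.82 and that of Aqp4 -1.43. In OPCs Gfap was at 8.11 at both passages. Slc1a2 was at 0.25 and 0.80 in OPCs and oligodendrocytes, Slc1a3 at -0.02 and -0.41, and Aldoc at -0.63 and 0.28. Over the list, 5 of 6 were negative in the passage fit with a median of -0.56, and their summed linear signal was 25300 and 18400 in OPCs and 18000 and 16300 in oligodendrocytes at passages 3 and 11. Nes, an intermediate filament gene of neural progenitors, was at -0.55 in OPCs and -2.33 in oligodendrocytes. The 10 mature neuron markers had a median of -0.04 between passages. The part of these cells in the Stmn2 values was not tested.

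**Figure D3:**
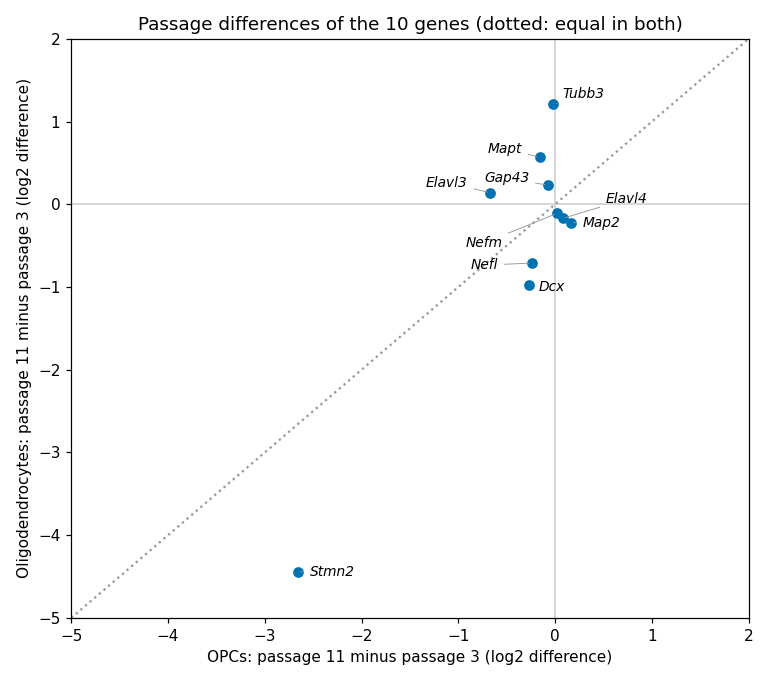
Passage 11 minus passage 3 in OPCs (horizontal axis) against the same difference in oligodendrocytes (vertical axis), both in log2 units, with 1 point for each of the 10 genes and a dotted line where the 2 differences are equal. Stmn2 lies at -2.66 and -4.44, Tubb3 at -0.02 and 1.21, and the others lie within 1 unit of 0 on both axes.

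Other genes of the same machinery gave the setting. Of 25 further neuronal tubulin genes and genes for tubulin-binding proteins, 20 were at least 2-fold higher in the rosette than in EpiSCs (median 1.81), led by Dpysl3 at 3.89, Stmn3 at 3.78, Dpysl4 at 2.83 and Kif5c at 2.74. From the rosette to OPCs 3 of 25 fell and 0 rose (median -0.70): the axonal kinesin gene Kif5a at -2.32, the tubulin gene Tubb4a at -1.61 and Dpysl4 at -1.49. Against EpiSCs 5 of 25 rose in OPCs, with the tubulin genes Tubb2a at 2.79 ± 0.19 and Tubb2b at 2.25 ± 0.23, the stathmin gene Stmn3 at 2.78 ± 0.24 and the doublecortin relative Dclk2 at 1.70 ± 0.24.

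In oligodendrocytes against OPCs 2 of the 25 rose, Tppp by 3.23 ± 0.19, 9.38-fold, and Tubb4a by 2.97 ± 0.20, 7.82-fold. Tppp encodes a microtubule-polymerising protein of oligodendrocytes, and Tubb4a encodes a beta-tubulin isotype found in oligodendrocytes. The other stathmins differed from Stmn2: between passages 3 and 11 of OPCs, Stmn1 differed by 0.02, Stmn3 by -0.46 and Stmn4 by -0.48, and in oligodendrocytes by 0.36, 0.06 and 0.90. Of 12 broadly expressed tubulin and microtubule genes 0 were called from the rosette to OPCs (3 had an unadjusted p under 0.05) and 0 in oligodendrocytes against OPCs (4 had), with medians of -0.21 and -0.04.

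Among 14 other intermediate filament genes, 1 fell from the rosette to OPCs, Ina, by 2.66 ± 0.33, 6.34-fold (adjusted p = 0.0208). Ina encodes alpha-internexin, the filament partner of the neurofilament subunits, and it was at 10.95 in EpiSCs and 13.51 in the rosette, 2.56 higher. The heavy subunit gene Nefh was between 8.85 and 9.49 on all 6 arrays, and Prph between 8.15 and 9.16. The list median was -0.08. In OPCs against EpiSCs 4 of the 14 fell, the epithelial keratin genes Krt19, Krt8 and Krt18 at -2.33, -2.02 and -1.94 and Des at -2.2.

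Of 16 growth cone and axon membrane genes, 11 were at least 2-fold higher in the rosette than in EpiSCs, led by Rtn1 at 4.41, Fez1 at 3.83, Ncam1 at 3.08 and L1cam at 2.91. They then parted in OPCs. The axonal adhesion genes L1cam and Cntn2 fell from the rosette to OPCs (-3.13 ± 0.16 and -3.05 ± 0.21), as did Ank3, for the ankyrin of the axon initial segment (-2.68 ± 0.21), while 0 rose. Against EpiSCs, 5 of the 16 rose in OPCs, with Rtn1 at 4.06, Fez1 at 3.33, the adhesion gene Ncam1 at 3.06 and Marcks at 2.21. Ank3 was the 1 gene of this list called in oligodendrocytes against OPCs, rising by 1.69 ± 0.17 (adjusted p = 0.041).

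Of 15 other RNA-binding protein genes, 6 fell from the rosette to OPCs and 0 rose, with a median of -0.73. They included Celf3 at -2.73 ± 0.18, the neuronal splicing factor gene Srrm4 at -2.0 ± 0.17, Rbfox1 at -2.0 ± 0.18 and Elavl2, the remaining neuronal Elavl gene measured here, at -1.89 ± 0.26. Elavl2 was at 9.53 in EpiSCs, 11.27 in the rosette, 9.59 and 9.16 in OPCs and 9.11 and 8.80 in oligodendrocytes. It thus lay low in oligodendrocytes like Elavl4 and unlike Elavl3. The broadly expressed relative Elavl1 (HuR) lay between 11.91 and 12.72 on all 6 arrays. Nova1, a splicing factor gene, rose by 2.92 ± 0.24 in OPCs against EpiSCs (adjusted p = 0.00449).

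REST is a repressor that keeps many neuronal genes silent outside neurons, acting with the CoREST proteins. Rest was at 11.41 in EpiSCs, 9.57 in the rosette, 9.77 and 9.92 in OPCs and 9.55 and 9.32 in oligodendrocytes. EpiSCs were the high array, and the neural arrays lay close together. OPCs fell by 1.57 ± 0.19 against EpiSCs (adjusted p = 0.0131). Among the 10 genes of the REST complex list, Rcor2 fell from the rosette to OPCs by 1.57 ± 0.19 (adjusted p = 0.0198) and the other 9 were not called.

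Mature neuron markers followed in part. From the rosette to OPCs 5 of 10 fell, including the glutamate transporter gene Slc17a6 at -2.49, the enolase gene Eno2 at -1.79, Gad2 at -1.74 and the synaptic gene Snap25 at -1.74, and 0 rose (median -1.28). Snap25 and Syt1 nonetheless stayed at 9.87 or above on all OPC and oligodendrocyte arrays, against 8.55 and 7.74 in EpiSCs. In oligodendrocytes against OPCs the 1 called marker was Eno2, which rose to a mean of 9.64 from 8.30.

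**Figure D4:**
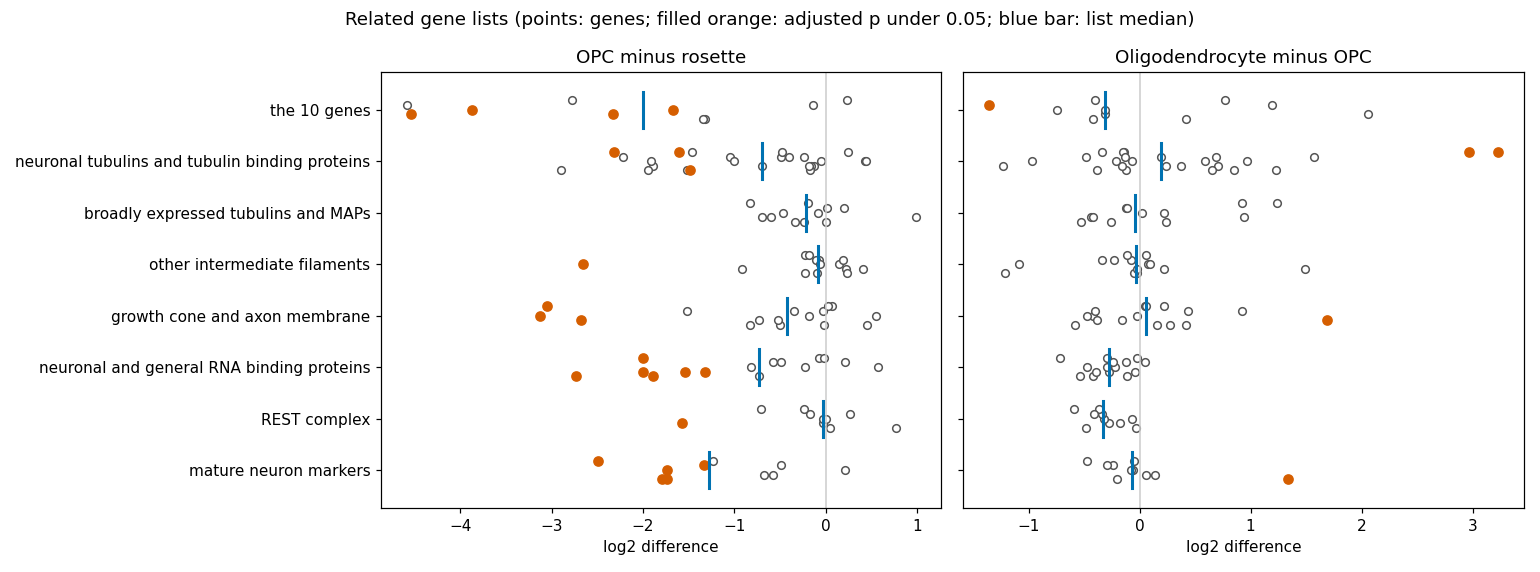
Log2 differences (horizontal axis) of every measured gene in 8 lists (vertical axis), for OPCs minus rosette on the left and oligodendrocytes minus OPCs on the right. Each point is a gene, filled orange where the adjusted p was under 0.05 over all genes, and the blue bar is the list median. On the left the called genes of these lists all lie below 0, with the median of the 10 genes at -2.0, and on the right they lie above 0 except Gap43.

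Genes with the most similar courses were sought among 1549 genes that varied by at least 2 log2 units, as the root mean square (RMS) difference of centred values over the 6 arrays, which cover 4 cell types. Nefm was most like the glycine receptor gene Glra1 (RMS difference 0.26), followed by the proneural factor gene Neurod4, Mab21l2, Slc18a2 and Chrna5 (0.27 each). Elavl3 was closest to the calcium channel subunit gene Cacnb4 (0.35), Aplp1 (0.37) and the zinc finger factor gene St18 (0.40), which were likewise higher in oligodendrocytes than in OPCs. St18 was at 7.61 in EpiSCs, 10.38 in the rosette, 7.61 and 7.70 in OPCs and 9.56 and 9.70 in oligodendrocytes. Elavl4 and Dcx shared the synaptic vesicle gene Syt1 among their nearest genes (0.26 and 0.33).

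Map2 was closest to the microRNA gene Mir181b-1 (0.14) and Dner (0.18), Tubb3 to Serpini1 (0.20), Mapt to Zbtb16 (0.17), Gap43 to St8sia1 and Nsg1 (0.34 each), and Nefl to the growth factor gene Mdk (0.53). For Stmn2 no gene came closer than Slc2a3, a glucose transporter gene, at 0.98, with Crabp1 at 1.07 and Sulf1 at 1.08 next. Slc2a3 was at 10.40 and 9.03 in OPCs and 11.32 and 8.90 in oligodendrocytes at passages 3 and 11, lower at passage 11 in both cell types as Stmn2 was. Among the 10 genes themselves, Dcx and Elavl4 were the most alike pair (0.46, Pearson r 0.96) and Map2 and Stmn2 the least (3.01, Pearson r -0.38).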

How the data were processed

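RNA of 6 cultures was measured on Affymetrix whole-transcript arrays, from 150 ng of total RNA per the labels. The authors deposited log2 values; the submitters' processing notes name RMA and Affymetrix Expression Console. Their versions: not given in the sources used here. Values ran from 3.26 to 14.87 with no missing value, and precision is limited by there being so few arrays. Of 35556 rows, 21789 carried 1 gene symbol, 1621 several and 12146 none. The row with the highest mean was kept for 999 genes with several, leaving 19938 genes. Genes without such a row were not analysed here.

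All 6 arrays entered 1 limma 3.58.1 fit (R 4.3.3, lmFit and eBayes, two-sided) with 4 groups and no passage term. For passage, a fit with a cell type covariate used the 4 arrays of OPCs and oligodendrocytes. Passage pairs OPC and oligodendrocyte cultures by their labels, and the passage differences of both cell types correlated at 0.50 over genes. Scripts were tested on simulated arrays with 200 changed genes, for OPCs against the rosette. Of these genes 0.0% were recovered at a true log2 difference of 1, 97.5% at 2 and 100.0% at 4. Unchanged genes called were 0, 23 and 11. A gene that was not called can thus still differ by 2-fold. The 10 genes, the lists and the tests were chosen with earlier results of these data known. Named genes are all 10, up to 4 called genes of a list with the largest differences (for the rosette against EpiSCs the largest differences), up to 5 nearest genes by RMS difference, and genes named after their values were seen: the Elavl, stathmin, doublecortin and filament relatives, Nes, Syt1, Rest and single markers of cell type. Alternatives were a passage block, a trended variance, a dim-gene filter, other scaling, other rows, fewer groups and leaving out each array.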

Additional observations from a re-analysis of the deposited data

Results flagged for a closer look

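For 7 of the 10 genes the passage 11 minus passage 3 difference had opposite signs in OPCs and oligodendrocytes, with 1 array on each side of every difference, so the contrast was not tested. Over all 19938 genes 31.4% had opposite signs, and a sign carries little where a difference is near 0. The widest gap was that of Tubb3, at -0.02 in OPCs and 1.21 in oligodendrocytes. Elavl3 was at -0.67 in OPCs and 0.14 in oligodendrocytes, and Mapt at -0.16 and 0.57. The remaining 4 were small in both: Map2 at 0.16 and -0.22, Gap43 at -0.07 and 0.23, Elavl4 at 0.08 and -0.17, and Nefm at 0.02 and -0.11. Over all genes the median absolute passage difference was 0.15 in OPCs and 0.22 in oligodendrocytes. No group held enough arrays to look for an outlying array.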

How the results depend on the processing

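From the rosette to OPCs 4 of the 10 genes were called. The count was 8 with only the compared groups fitted, where 2897 of 19938 genes were called, against 624 with all 6 arrays. It also moved when 1 array was left out. For oligodendrocytes against OPCs 1 was called, with 89 over all genes. That count was 0 with passage as a replicate block (83 over all genes) and 0 with a trended variance (79 over all genes). It was 0 without dim genes (20 of 11880 genes) and 0 with arrays quantile-normalized again (43 over all genes). With arrays centred on their medians it was 2 (157 over all genes). When 1 array was left out it moved in either direction, and so did the number called over all genes. For oligodendrocytes against the rosette 4 were called, a count that also moved when 1 array was left out. The counts for OPCs against EpiSCs (5, from 4 to 7), passage (0) and the rosette against EpiSCs (9, or 10 after quantile normalization) moved by less than 1.5 times under the alternatives run. The replicate block gave 6 called genes in OPCs against the rosette (1206 over all genes) and 6 in OPCs against EpiSCs (2318 over all genes). It also gave 6 in oligodendrocytes against the rosette, whose count over all genes with the block is not given here. It sets the EpiSC and rosette arrays midway between the passages.

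Directions turned only in oligodendrocytes against OPCs: Stmn2 at -0.14 without OPC replicate 2 (passage 11) and -1.03 without oligodendrocyte replicate 1 (passage 3), and Dcx at 0.07 and Nefl at 0.05 without oligodendrocyte replicate 2. Over the arrays left out in turn, Stmn2 ranged from -1.03 to 3.41, Dcx from -0.91 to 0.07 and Nefl from -0.66 to 0.05. A single-gene value counted as unchanged if it kept direction and side of the threshold. For the untested rosette against EpiSCs, it had to keep direction and a similar size. Of 530 single-gene values under alternatives, 471 were unchanged, 42 newly passed, 13 no longer passed and 4 turned. The cause was not tested. Rescaling moved the median of all genes by at most 0.06. Passage could not be fitted with an array left out. Without detection calls, low values can be background.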
